A study of Glycine max with 12 samples.

Results

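A set of 73 of the 5760 spots on a soybean cDNA array was raised in leaves by both inducers of endoplasmic reticulum (ER) stress, tunicamycin (TUN) and L-azetidine-2-carboxylic acid (AZC), and was not raised by polyethylene glycol (PEG). The members were chosen on the authors' log2 ratios of treated over control, where a value of 1 is a doubling. The mean over the 4 hybridizations of a treatment, with at least 3 values present, had to be 1.5-fold or more under TUN and under AZC and less than 0.3 under PEG. Of the 5332 spots with a mean under all 3 treatments, 95 met both upper limits, and 22 of these were left out because their PEG mean was 0.3 or more. Only 6 members carry a gene symbol in the platform table, namely BIP4 on spots 1140 and 2687, LOC547838 on spot 4040, and LOC547851 on spots 1693, 4667 and 5495. The other 67 carry none in the tables used here, are called by their spot number, and are the clones described below. A missing symbol does not show that a clone is of another gene than the named members.

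Excised shoots of soybean plants of the cultivar Dare, 3 weeks old, stood in 10 µg/ml TUN for 24 h, in 50 mM AZC for 16 h or in 10% (w/v) PEG for 16 h, and the first trifoliate leaves were then taken. The control was DMSO for TUN and water for AZC and PEG, and nothing in the labels tells if AZC and PEG shared their water plants. Each treatment had 2 biological replicates, each hybridized with both dye orientations, which made 12 hybridizations. The times differ between TUN and the other treatments, so a difference between TUN and AZC is also one between 24 h and 16 h and between DMSO and water.

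TUN blocks the attachment of N-linked sugar chains to proteins that enter the ER, and AZC is a proline analogue that is built into proteins and disturbs their folding. Cells answer unfolded proteins in the ER with the unfolded protein response, which raises chaperones such as BiP and calnexin, folding enzymes and parts of the machinery that removes misfolded proteins. PEG in the solution lowers the water potential around the tissue and is used to impose osmotic stress.

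The median signal of a hybridization was 3.15 to 11.2 times its local background in Cy5 and 3.47 to 13.4 times in Cy3. One hybridization stood apart, that of PEG replicate 2 with its treated sample in Cy5. Its spots were outlined by an adaptive circle instead of a histogram, and 44.7% of those in Cy5 lay above local background plus 2 standard deviations (SD), against 96.9% to 100% on the other arrays. The spot of PSAD, a photosystem I subunit and the single leaf marker with a symbol, lay above background in all 12 control channels, at percentile 69.6 of control intensity. Seed protein spots had a median control percentile of 37.9, against 48.0 for all spots, and 12 of 19 lay above background in all 12 control channels. Most spots pass this limit, so nothing is read from that count. Of 5332 spots, 5186 were above background in every DMSO channel, 5332 in every AZC water channel and 4478 in every PEG water channel. The labelled tissue therefore rests on 1 marker here. Since whole leaves were sampled, a change in RNA per cell and a change in the share of a cell type cannot be told apart.

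The 67 clones had a median log2 ratio of 1.12 under TUN, from 0.61 to 4.68, and of 1.03 under AZC, from 0.59 to 4.57. These values chose the clones and are a description. Over all 5332 spots the medians were -0.01 under TUN and 0.01 under AZC. Few of the clones rose strongly: 9 passed a log2 ratio of 2 (4-fold) under TUN, 12 under AZC and 6 under both, and 15 stayed under 2-fold under both. The single hybridizations are the values whose mean chose the clones, so counts over them are a description too. Of the 54 clones with 4 values under TUN, 51 were above 0 in every hybridization and 31 were at 1.5-fold or more in every one. Of the 63 with 4 values under AZC, these numbers were 62 and 37. Among the 5332 spots, they were 543 and 76 of 4670 under TUN and 884 and 90 of 4820 under AZC.

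The limits of the choice cut through a continuous range. Just inside the TUN limit lay spots 1304 (0.61) and 246 (0.62), and just outside it lay spots 1256 (0.48) and 2315 (0.46). Just inside the AZC limit lay spots 593 (0.59) and 2800 (0.60), and just outside it spots 4080 (0.58) and 1197 (0.55). Spots 4661 (0.29) and 1247 (0.29) had the highest PEG means kept, and spots 3336 (0.33) and 1257 (0.37) were the first ones left out.

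Spot 4174 rose most. Its log2 ratios under TUN were 4.77 and 4.79 in replicate 1 and 5.02 and 4.13 in replicate 2, with the treated RNA in Cy3 given first and in Cy5 second, as in all lists of 4 values here. Under AZC they were 5.02, 4.37, 4.79 and 4.09. The means of 4.68 (SD 0.38, n = 4 hybridizations) and 4.57 (SD 0.42, n = 4 hybridizations) correspond to 25.6-fold and 23.7-fold, and the values of the treatments overlapped.

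Spots 4273 and 1300 followed, both higher under TUN than under AZC. Spot 4273 gave 3.93, 3.73, 3.83 and 3.24 under TUN and 2.54, 2.58, 2.56 and 2.74 under AZC, with no overlap. Spot 1300 gave 3.70, 3.57, 3.32 and 3.03 under TUN and 2.86, 2.89, 2.43 and 1.95 under AZC, again with no overlap. Spot 5723 gave 3.62, 3.08 and 3.12 under TUN, the value of replicate 2 in Cy5 being absent, and 2.76, 2.48, 2.41 and 1.61 under AZC.

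Spot 3777 showed the opposite order, with 2.07, 2.25, 1.60 and 1.78 under TUN and 4.06, 4.09, 3.45 and 2.89 under AZC. Spot 5559, the sixth by the mean of both treatments, was near equal, with a mean of 2.15 (SD 0.25, n = 4 hybridizations) under TUN and 2.35 (SD 0.57, n = 4 hybridizations) under AZC.

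**Figure D1:**
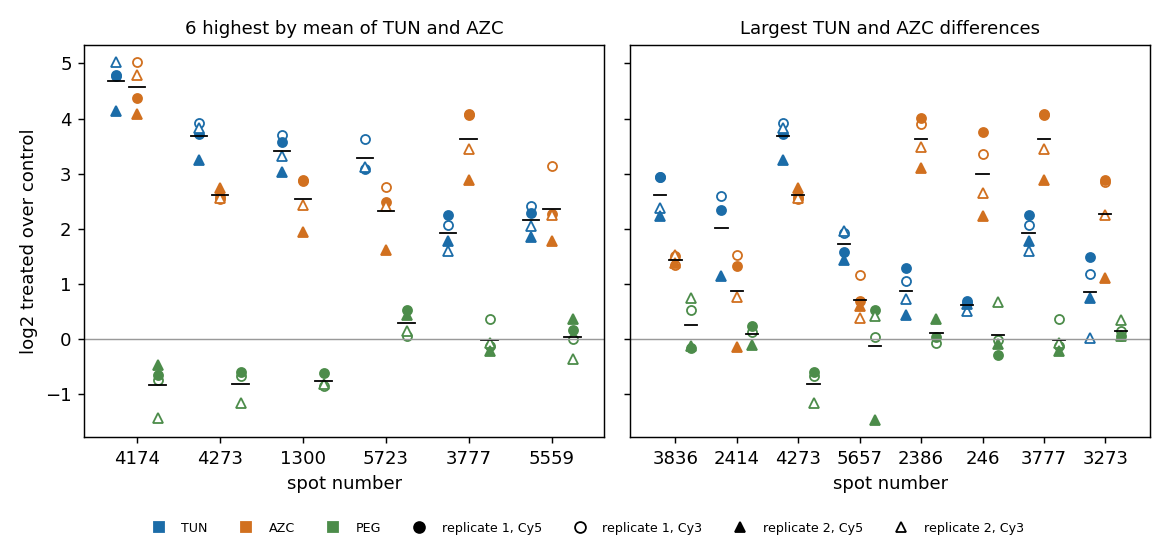
Log2 ratio of treated over control (y axis) for the 6 clones with the highest mean of TUN and AZC (left) and the 8 with the largest differences between them (right), by spot number (x axis). Each point is 1 hybridization, with circles for replicate 1, triangles for replicate 2, filled points for treated RNA in Cy5 and open points for Cy3, and bars mark the means. All PEG points of spots 4174, 4273 and 1300 lie below 0, and spots 2386 and 246 are far higher under AZC than under TUN.

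The authors' ratios were larger under TUN in most clones, in 47 of 66 by replicate 1 alone and 32 of 51 by replicate 2 alone. The TUN mean exceeded the AZC mean in 47 of the 67 (70.1%), against 45.6% of the 5332 spots. It did so in 184 (63.2%) of the 291 spots raised by either inducer, a set that holds the clones. Their median TUN minus AZC was 0.27. The TUN mean was the larger in 6 of the 22 spots raised by both inducers with a PEG mean of 0.3 or more. The median TUN minus AZC of those 22 was -0.46. With the scanner intensities fitted by limma, TUN was the larger in 33 of 51 clones. This count moved when a replicate of 1 treatment was left out. It was 17 of 52 without TUN replicate 1, 25 of 55 without AZC replicate 2 and 47 of 62 without TUN replicate 2. Such fits set 1 replicate of a treatment against both of the other, and the replicates differed in size, as given below. The median difference of TUN minus AZC was 0.11 on the log2 scale, with quartiles of -0.13 and 0.42, and the difference was under 1.5-fold in 50 clones. It was under 1.5-fold in 5037 of the 5332 spots and in 11 of the 22 spots just named, and since the choice required both ratios to be high, nothing is read from this count. Across the 67 clones the means of both treatments correlated at Pearson's r = 0.58 and Spearman's rho = 0.43, within a range that the limits of the choice cut off below.

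The large differences ran both ways. TUN exceeded AZC by over 1 (2-fold) in 4 clones and AZC exceeded TUN by over 1 in 5, and the widest gaps favoured AZC. Both replicates of TUN lay above both of AZC in 12 of 50 clones with all values, against 18.6% of all spots, and both of AZC lay above both of TUN in 5, against 24.5%.

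**Figure D2:**
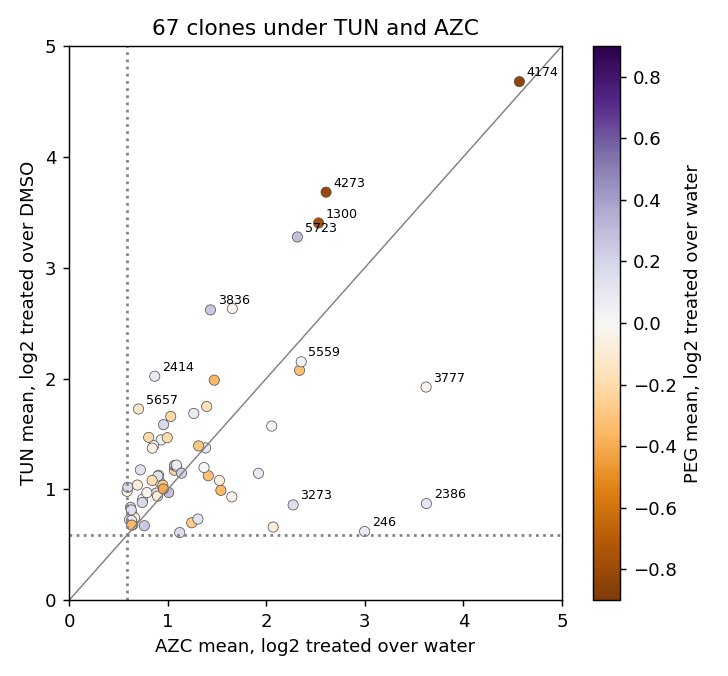
Mean log2 ratio under TUN (y axis) against that under AZC (x axis) for the 67 clones, coloured by the PEG mean. The diagonal marks equal values and the dotted lines the limit of 1.5-fold; 47 clones lie above the diagonal, and spots 4174, 4273 and 1300 have the lowest PEG means.

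Spot 2386 had the widest gap. It gave 1.04, 1.29, 0.73 and 0.43 under TUN and 3.91, 4.0, 3.49 and 3.10 under AZC, so that the lowest AZC value lay far above the highest TUN value. Spot 246 gave 0.65, 0.69, 0.50 and 0.64 under TUN, just over the limit, and 3.35, 3.76, 2.65 and 2.23 under AZC. Spot 3273 was 1.41 higher under AZC in the means, yet its replicates differed widely, with 1.19, 1.49, 0.02 and 0.74 under TUN and 2.86, 2.88, 2.25 and 1.11 under AZC. In the other direction, spot 3836 gave 2.93, 2.94, 2.37 and 2.24 under TUN and 1.33, 1.51, 1.53 and 1.37 under AZC, with no overlap. Spot 5657 gave 1.93, 1.57, 1.96 and 1.44 under TUN and 1.16, 0.69, 0.37 and 0.59 under AZC. Spot 2414 differed by 1.15 in the means, but its AZC values ran from -0.15 to 1.53.

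The difference between the treatments was fitted with limma on the scanner intensities of all spots, with Benjamini-Hochberg adjustment over the 4372 spots tested. The limits of the choice use both values, so these calls are not independent of it. Of 51 clones tested, 2 were called higher under TUN (1.46% of all spots) and 3 higher under AZC (0.618% of all spots). Spot 2386 had a fitted TUN minus AZC of -3.60 (standard error 0.32, adjusted p = 0.00125), spot 246 one of -2.89 (standard error 0.31, adjusted p = 0.00141) and spot 3777 one of -2.19 (standard error 0.27, adjusted p = 0.00329). The difference was in favour of TUN on spot 3836, at 1.30 (standard error 0.23, adjusted p = 0.0213), and on spot 4273, at 0.92 (standard error 0.16, adjusted p = 0.0229). The other 46 clones tested were not called, among them spots 1300 (adjusted p = 0.266) and 5657 (adjusted p = 0.122), which does not show that they were raised alike.

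Against 0, the same fit called 50 of 55 clones tested higher under TUN (4.49% of all spots) and none lower (2.75%). Under AZC it called 59 of 63 higher (4.0% of all spots) and none lower (5.14%), and no clone was lower at an unadjusted p under 0.05 either. The choice used these contrasts, and the counts are no test of it.

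The rule was also applied to replicate 1 alone, and the spots so chosen were read in replicate 2, which that choice did not use. They were chosen anew, so this does not check the 67 clones themselves. Replicate 1 gave 88 spots without a symbol, of which 49 had all values in replicate 2. In replicate 2 their medians were 0.86 under TUN, 0.71 under AZC and 0.03 under PEG. The TUN limit was met again by 34, the AZC limit by 32, both by 26, and the whole rule by 23 (46.9%), against 0.813% of all 3569 spots with values. The PEG limit alone was met by 41 (83.7%), the same share as in all spots (83.7%), so it adds nothing to that gap. In the other direction, 23 of 24 spots chosen in replicate 2 met the rule in replicate 1, against 1.79% of 5359 spots. The PEG limit was met there by 24 of 24, against 90.7% of all spots. The directions are not alike, since replicate 1 held the larger ratios in most of the 67 clones, as given below.

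**Figure D3:**
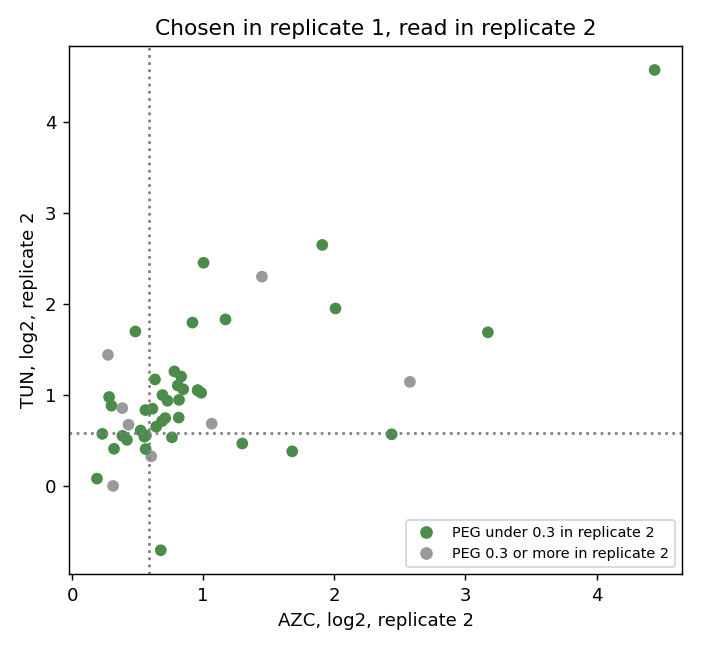
Log2 ratio in replicate 2 under TUN (y axis) and AZC (x axis) of the 49 spots without a symbol that were chosen in replicate 1. Each point is 1 spot and the dotted lines mark 1.5-fold; 26 points lie past both lines, 23 of them with a PEG value under 0.3.

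The replicates were not of equal size. In the clones with both values, replicate 1 exceeded replicate 2 in 50 of 54 under TUN, by a median of 0.46, and in 56 of 63 under AZC, by a median of 0.36. Over all spots with 3 means the median differences were -0.04 and -0.01. In the 63 spots raised by TUN only (1.5-fold or more under TUN, under 0.3 under AZC and PEG), replicate 1 exceeded replicate 2 under TUN by a median of 0.35, and under AZC, which did not raise them, by 0.02.

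Under PEG the clones lay on both sides of 0, in shares that moved with the processing. The median was -0.01, with quartiles of -0.18 and 0.14, and 34 of 67 (50.7%) lay below 0, against 48.1% of the 4796 spots with a PEG mean under 0.3. Both PEG replicates lay below 0 in 13 of 53 clones (24.5%), against 30.2% of such spots, and both above 0 in 20 (37.7%), against 34.9%. The share below 0 was slightly above that of the other spots under the same limit by the mean and below it by the replicates, and no test was made. Without the hybridization that stood apart, 29 of 60 were below 0. The median of the hybridizations in place of their mean put 28 of 67 below 0, and the scanner intensities with median centring put 45 of 67 there, with a median of -0.11. The shares of all spots below 0 under these alternatives are not given here, so a shift particular to the clones is not shown.

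Only a few clones fell clearly. The PEG mean showed a fall of at least 1.5-fold in 3 clones, between -0.76 and -0.83, and the next lowest clone was at -0.41. These 3 were spots 4174, 4273 and 1300, which also had the 3 highest means of TUN and AZC. The paper lists a BiP isoform D, a calnexin and a CDC48-like clone whose folds match, in this order, those of these 3 spots. It places CDC48-like in the removal of misfolded ER proteins. The spots carry no symbol here, so these names rest on the matching folds alone. Spot 4174 gave -0.75, -0.66, -1.44 and -0.48, all below 0. Spot 4273 gave -0.68, -0.60 and -1.17, and spot 1300 gave -0.86, -0.62 and -0.81, both without a value in the hybridization that stood apart, so that the fit described next did not test them under PEG.

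The share with a low PEG mean, 4.48%, was close to the 4.65% of spots under the same limit. Across the 67 clones the TUN and PEG means correlated at r = -0.51 and rho = -0.28, and at r = -0.04 and rho = -0.175 once these 3 were left out. High rises did not always go with a fall: spot 5723 gave 0.04, 0.52, 0.14 and 0.43 under PEG, all above 0, and spots 3777 and 5559 had PEG means of -0.01 and 0.04. Of the 6 members with a symbol, which are BiP and calnexin clones, 5 had PEG means between -1.28 and -0.74, a range that holds the values of spots 4174, 4273 and 1300.

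Spot 3984 was the fourth lowest, and its values differed with the dye. Its PEG values were 0.00 and 0.02 with the treated RNA in Cy3 and -0.66 and -0.99 in Cy5, while TUN and AZC gave means of 1.0 (SD 0.19, n = 4 hybridizations) and 0.96 (SD 0.17, n = 4 hybridizations). limma called 2 of 54 clones tested lower under PEG (7.0% of all spots), spot 4174 at -1.24 (adjusted p = 0.000387) and spot 3984 at -0.56 (adjusted p = 0.0375), and none of 54 higher (4.56% of all spots; 1 at an unadjusted p under 0.05). The choice used the PEG values too, and nothing is read from these counts.

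**Figure D4:**
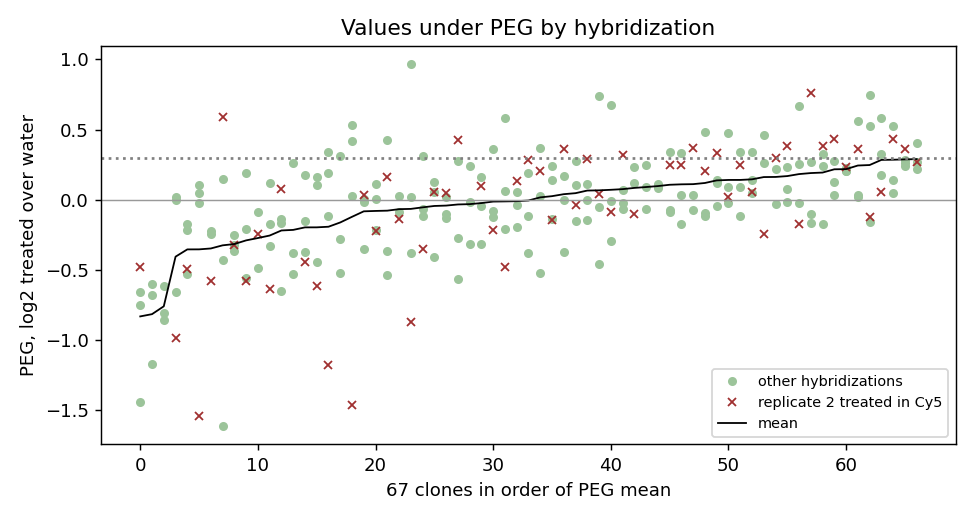
Log2 ratio under PEG (y axis) of the 67 clones in order of their PEG mean (x axis, black line). Points are single hybridizations, crosses mark replicate 2 treated in Cy5, and the dotted line marks the limit of 0.3; the mean of 3 clones lies at -0.76 or lower and the others lie between -0.41 and 0.29.

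The control channel gives the signal of a clone in leaves of the DMSO or water controls, ranked here as a percentile within each hybridization. This signal also depends on the DNA printed on a spot, so spots are not ordered by transcript level. The 67 clones had a median percentile of 37.4 in the DMSO channel of the TUN arrays and 29.96 in the water channel of the AZC arrays, against 49.6 and 49.5 for all spots. These channels are the denominators of the ratios that chose the clones. The water channel of the PEG arrays is no part of the TUN and AZC ratios, but it is the denominator of the PEG ratio, which the choice limited. In it the median was 44.7, against 47.7 for all spots and 49.5 for the spots with a PEG mean under 0.3. In the treated channel the median rose to 63.3 under TUN and 60.6 under AZC and was 42.3 under PEG.

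The mean of the 3 control percentiles placed 15 clones at percentile 25 or lower, 37 up to 50, 13 up to 75 and 2 above it, against 1079, 1705, 1186 and 1362 of the 5332 spots. This mean includes the DMSO and AZC water channels, the denominators of the ratios that chose the clones. The choice therefore bears on these counts, and nothing is read from them. Of the 291 spots raised by either inducer, 4 were above percentile 75, under the same limit. The 22 spots raised by both inducers with a PEG mean of 0.3 or more had a median of 36.5, and the 67 clones one of 35.9. Every clone lay above background in at least 1 hybridization of each control, and 63 of 67 did so in every DMSO channel and 67 in every water channel of the AZC arrays. In the water channel of the PEG arrays 50 of 67 did so in every hybridization, against 4478 of the 5332 spots.

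The 2 brightest clones in the controls rose between 1.91-fold and 2.73-fold. Spot 146, at percentile 94.4, gave 1.17, 1.31, 1.17 and 1.04 under TUN and 1.30, 1.35, 0.66 and 0.96 under AZC. Spot 344, at percentile 80.3, had means of 1.45 (SD 0.34, n = 4 hybridizations) and 0.93 (SD 0.13, n = 4 hybridizations). At the other end, spot 2726 lay at percentile 1.04, with 1.56, 2.37 and 1.04 under TUN and 1.34, 1.15, 0.89 and 0.73 under AZC. Spot 5481 lay at 4.94, with means of 1.20 (SD 0.33, n = 4 hybridizations) and 1.37 (SD 0.19, n = 3 hybridizations). The size of the rise under TUN and the percentile in the PEG arrays correlated at r = 0.19 and rho = 0.07 over the 67 clones.

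**Figure D5:**
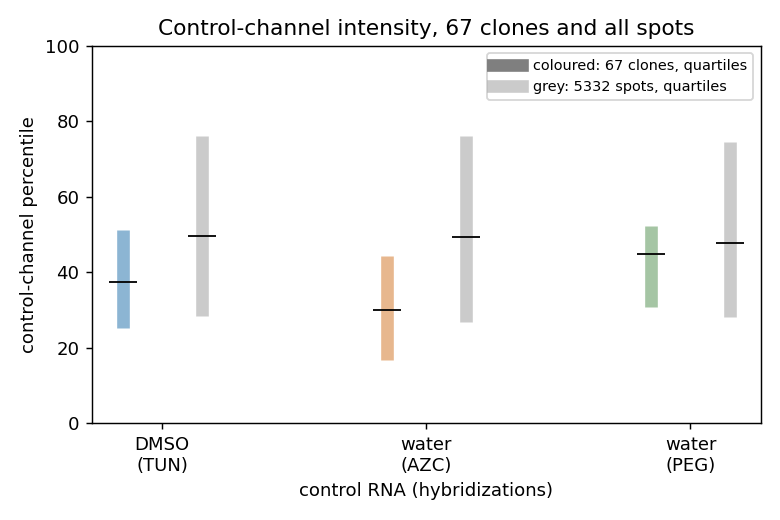
Control-channel percentile within a hybridization (y axis) for the 3 control RNAs (x axis), with the 67 clones in colour and all spots with 3 means in grey. Boxes span the quartiles and black lines mark the medians, which for the clones are 37.4, 29.96 and 44.7.

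Among the named spots, 9 belong to ER protein folding or degradation: the BiP clones, 4 calnexin clones (LOC547851), the folding enzyme PDIS-2 and the ubiquitin-conjugating enzyme UBC4. Of these, 6 are members. The other 3 were near 0 under both inducers, with TUN means of 0.06 for the calnexin clone on spot 165, -0.06 for PDIS-2 and 0.07 for UBC4. limma called 5 of 6 tested higher under TUN (4.49% of all spots) and 6 of 8 higher under AZC (4.0%), and none lower. Under PEG it called 5 of 7 lower (7.0%) and none higher. All the spots called are among the 6 members, which were chosen on these values, so nothing is read from the counts.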

How the data were processed

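Leaf RNA was compared on 12 two-colour hybridizations. The deposited value table holds log2 ratios that the authors background-subtracted and LOWESS-normalized (QuantArray 2.2 and Genespring 7.2 per the methods), and these chose the members. The members and gene lists were chosen with earlier results of these data known. Intensity values (mean foreground and median local background), as deposited in the scanner files, were corrected by normexp (offset 50) and global loess with limma 3.58.1 in R 4.3.3. Spots marked 1 or 4 were left out, dye-swap pairs were averaged with both orientations required, and 1 coefficient per treatment was fitted with an intensity trend (prior degrees of freedom 6.19). The filter, signal above background plus 2 SD on at least 3 of 4 hybridizations, passed all 5760 spots. Within PEG replicate 1 each scanner file was given to its dye-swap partner, because it tracked the ratios of that partner (r = 0.94 and -0.87) more than its own (r = 0.49 and -0.45). Replicates measure the spread between 2 samples a treatment. Named clones, among those above background, are the 6 highest by mean, 4 per direction of difference, 4 lowest under PEG and 2 at each end of control percentile. The fit was tested on simulated data.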

Additional observations from a re-analysis of the deposited data

Results flagged for a closer look

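The effects of TUN and AZC differed in 5 of the named clones by the limma test of TUN minus AZC. The differences were -3.60 for spot 2386, -2.89 for spot 246, -2.19 for spot 3777, 1.30 for spot 3836 and 0.92 for spot 4273. Over 19 alternatives each, spots 2386 and 246 lost the call in 1, spot 3777 in 4, spot 4273 in 7 and spot 3836 in 9, all with the direction kept. The 19 include no filter and the stricter filter, which equal the main fit since every spot passed and so could not lose a call. The adjusted p (limma) ran from 0.000105 to 0.167 for spot 2386 and from 0.000747 to 0.597 for spot 3836. Among 42 sets of 4 hybridizations of the named clones, none held a single hybridization past Dixon's limit.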

How the results depend on the processing

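The rule gave 73 spots, and 44 of them with all 4 values required, 30 with a limit of 1 and 39 with a PEG limit of 0. With only treated RNA in Cy5 it gave 45 spots, of which 43 are members. It gave 29 spots with replicate 2 alone and 96 with replicate 1 alone, of which 28 and 68 are members. The median TUN minus AZC was 0.24 with median centring and ran from 0.087 to 0.19 over single replicates. The rule was met again by 95.8% of spots without a symbol when chosen in replicate 2 and by 46.9% when chosen in replicate 1. Clones called under TUN numbered 32 to 63 when single replicates were left out (32 without TUN replicate 1), under AZC 33 to 62 (33 without AZC replicate 1; 38 with only Cy5), under PEG 1 to 2, and for TUN minus AZC 2 to 8 (2 and 3 without AZC replicates 1 and 2, 8 without TUN replicate 2). PEG calls were 1 without background correction, with print-tip loess and with mean local background, and 5 with only Cy3. TUN minus AZC calls were 3 with plain subtraction, with only Cy5 and without the PEG hybridization that stood apart. The methods' t-test called 9 clones under PEG before adjustment, and after Benjamini-Hochberg 0 under TUN (58 before), 11 under AZC and 0 under PEG. With the PEG replicate 1 files as listed, an alternative chosen after seeing the data like mean local background, limma called 13 under TUN, 23 under AZC, 0 under PEG (0 at an unadjusted p under 0.05) and 0 for TUN minus AZC (5 in each direction unadjusted). The cause was not tested. Over all spots the calls numbered 355 under TUN (0 to 871 over the alternatives), 459 under AZC (65 to 1343), 502 under PEG (0 to 745) and 91 for TUN minus AZC (1 to 196). The share of all spots called by each single alternative, and the direction of the 9 PEG calls of the t-test, are not given here. The counts of clones therefore show only how calls moved with the processing. No filter and the stricter filter changed nothing, since every spot passed.

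The replicate differences correlated weakly between treatments, at r = 0.14 for AZC and TUN, -0.06 for PEG and TUN and -0.07 for AZC and PEG. A weak correlation does not show that samples of the same replicate number were unpaired. In most clones with both values, replicate 1 exceeded replicate 2 under TUN and under AZC, as given above. Pairing by replicate number is therefore not decided here. With a replicate block, 53 clones were called under TUN, 61 under AZC, 2 under PEG and 7 for TUN minus AZC, and over all spots 389, 460, 489 and 108.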
